A study of Mus musculus with 2 samples.

Results

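The small proline-rich genes Sprr1b, Sprr1a and the pseudogene Sprr2j-ps were described in the skin of female SKH-1 mice, which are hairless, described as 10 to 12 weeks old. They are 3 of the 19465 genes in the deposited matrices and 3 of the 12 measured genes with a Sprr symbol. They were chosen by symbol after their levels in the 4 sections below were known, so those levels and their ratios chose them and every value below is a description with no test. The skin came from 4 groups with 1 section each: UVR-exposed skin treated with 0.1% retinol, UVR-exposed skin treated with 0.03% 9-cis HPR, UVR-exposed skin with no retinoid named, and normal skin called control here. The radiation dose, its schedule, any vehicle and the age at sampling are not given in the sources used here. The retinol and HPR sections shared 1 capture area, and the UVR and control sections shared the other, so a treated section differs from the UVR section by both treatment and area, and these cannot be told apart. Transcripts were counted as UMIs, single captured molecules, at barcoded spots that each cover several cells. The labels place the retinol and UVR sections above the HPR and control sections, and this was read from the image; the spot grid runs the other way, and reading it instead would exchange the groups on each area and turn the direction of the ratios below. With 1 section per group there was no measure of variation between animals, so no p-value was computed and all 95% intervals cover counting error only.

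Small proline-rich proteins are precursors of the cornified envelope, the protein shell that replaces the plasma membrane of dying keratinocytes at the skin surface. Transglutaminases cross-link them to loricrin and to other envelope proteins. In skin they are made late in keratinocyte differentiation, and they are known to be induced by ultraviolet radiation, wounding and other stresses. Sprr1a and Sprr1b encode 2 closely related members of the family, whereas Sprr2j-ps is annotated as a transcribed pseudogene of the Sprr2 group.

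All 3 genes lie in the Sprr cluster of the epidermal differentiation complex on mouse chromosome 3. In GRCm38.p6, the assembly also called mm10, Sprr2j-ps (ENSMUSG00000027925) spans chr3:92418087-92419396, Sprr1b (ENSMUSG00000048455) spans chr3:92436808-92438817 and Sprr1a (ENSMUSG00000050359) spans chr3:92483954-92485881. The gap between Sprr2j-ps and Sprr1b is 17.4 kb and the gap between Sprr1b and Sprr1a is 45.1 kb. RefSeq lists 17 Sprr genes between positions 92215835 and 92500493, of which 12 were in the files; levels of the other 5 are not reported here.

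The start regions of the 2 protein-coding members are shown because both hold a match to TGANTCA. This pattern is wider than the core motif of AP-1 factors such as Fos and Jun, which has G or C in place of N. The Sprr1a matches are TGAGTCA and the Sprr1b match is TGAATCA, so only the Sprr1a window holds that core. Each RefSeq window (GRCm38.p6, minus strand) holds 250 bases before the annotated start and 50 from it, and capitals mark matches to TGANTCA or TATAAA on either strand.
Sprr1a, chr3:92485832-92486131: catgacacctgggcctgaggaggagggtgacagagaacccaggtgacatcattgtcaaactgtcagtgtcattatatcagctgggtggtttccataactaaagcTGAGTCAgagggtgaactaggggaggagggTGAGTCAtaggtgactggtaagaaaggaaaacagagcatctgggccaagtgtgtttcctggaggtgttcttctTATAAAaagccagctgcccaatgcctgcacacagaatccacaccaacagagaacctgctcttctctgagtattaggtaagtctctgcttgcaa
Sprr1b, chr3:92438730-92439029: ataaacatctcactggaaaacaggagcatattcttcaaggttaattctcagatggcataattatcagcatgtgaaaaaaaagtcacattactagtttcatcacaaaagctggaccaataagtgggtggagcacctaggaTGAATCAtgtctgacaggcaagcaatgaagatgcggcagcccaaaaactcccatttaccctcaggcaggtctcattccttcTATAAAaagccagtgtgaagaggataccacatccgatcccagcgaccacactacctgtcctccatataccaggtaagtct
In the Sprr1a window TGANTCA begins 146 and 116 bases before the start, and TATAAA 43 bases before it. In the Sprr1b window TGANTCA begins 111 bases before the start and TATAAA 30 bases before it. The start used for the Sprr1b window lies inside the gene span given above, which ends at 92438817. For Sprr1a the start is the end of the span, at 92485881. TGANTCA reads the same on both strands and did not overlap TATAAA in these windows. Of all 32851 RefSeq mouse promoter windows of this length, 7.81% held TGANTCA and 13.6% held TATAAA. Among the 14 Sprr genes in that table, 9 held TGANTCA and 10 held TATAAA. The octamer ATTTGCAT, a motif of POU factors, was in 7 of the 14, all of them Sprr2 genes, and in 1.74% of all windows; neither window shown here holds it. A match is a description of letters and not of a bound site.

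Spots with at least 200 UMIs were kept, which left 544 spots in the retinol section, 644 in the HPR section, 647 in the UVR section and 339 in the control section. Their UMIs summed to 1414976 in the retinol section, 1249928 in the HPR section, 2558616 in the UVR section and 326095 in the control section, so the control values rest on the fewest counts. Spots of all sections were clustered without the Sprr and keratin genes, and the clusters were joined into layers after they had been seen. The outer layer (regions 1, 2 and 5) had basal keratinocyte markers at 25195 to 60129 CPM (UMIs of a gene per 1000000 UMIs of the spots summed) and 23316 to 106966 CPM of suprabasal and cornified markers. The middle layer had fibroblast markers at 5366 to 7232 CPM but basal keratinocyte markers at 16700 to 31707 CPM, and the leading genes of its regions 3 (Igkc, Igha, Cfd) and 6 (Atp6v0d2, Mpeg1, Trem2) are not fibroblast markers, so the layer is named by position and not by a cell type; the muscle layer had skeletal muscle markers at 125106 to 336765 CPM. The spots of the outer layer numbered 197 in the retinol section, 225 in the HPR section, 267 in the UVR section and 90 in the control section. Region 5 of the outer layer was nearly a region of the UVR section alone, with 116 UVR spots and 1 control spot. Of the position codes, 430 occurred on both areas, since the same code marks the same grid position.

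Sprr1b was the most counted of the 3 genes in every section. It had 14249 UMIs in the retinol section, 15191 in the HPR section, 60460 in the UVR section and 326 in the control section. As a share of each section these were 10070, 12153, 23630 and 999.7 CPM. The UVR section was highest, both retinoid-treated sections lay between, and the control section was lowest, and the counting intervals of the treated sections overlapped neither the UVR nor the control interval. Sprr1b was 23.6-fold higher in UVR than in control skin (21.2 to 26.4), the fifth from the top of 2510 genes that reached 100 UMIs in the 2 sections together.

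Sprr1a, the closest relative of Sprr1b, had 1008 UMIs in the retinol section, 904 in the HPR section, 4917 in the UVR section and 56 in the control section. These were 712, 723, 1922 and 172 CPM. The UVR section was again highest and the control section lowest, and the intervals of the retinol section (669 to 758) and the HPR section (677 to 772) lay between theirs. Sprr1a was 11.2-fold higher in UVR than in control skin (8.60 to 14.8).

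Sprr2j-ps had 122 UMIs in the retinol section, 15 in the HPR section, 233 in the UVR section and 1 in the control section. These were 86.2, 12.0, 91.1 and 3.07 CPM. Here the retinol and UVR sections lay together, with overlapping intervals of 71.6 to 103 and 79.7 to 104 CPM, and the HPR section lay below the UVR section at 6.72 to 19.8 CPM. The control interval of 0.0776 to 17.1 CPM overlapped that of the HPR section. The ratio of UVR to control skin was 29.7, with a counting interval of 5.28 to 1178 because the control value is 1 UMI. All 3 members were thus past 2-fold in that comparison, which 12.4% of the compared genes were in the upward direction. When each of the 3 layers counted equally in a section, the ratio was 12.1 for Sprr1b and 4.05 for Sprr1a.

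**Figure D1:**
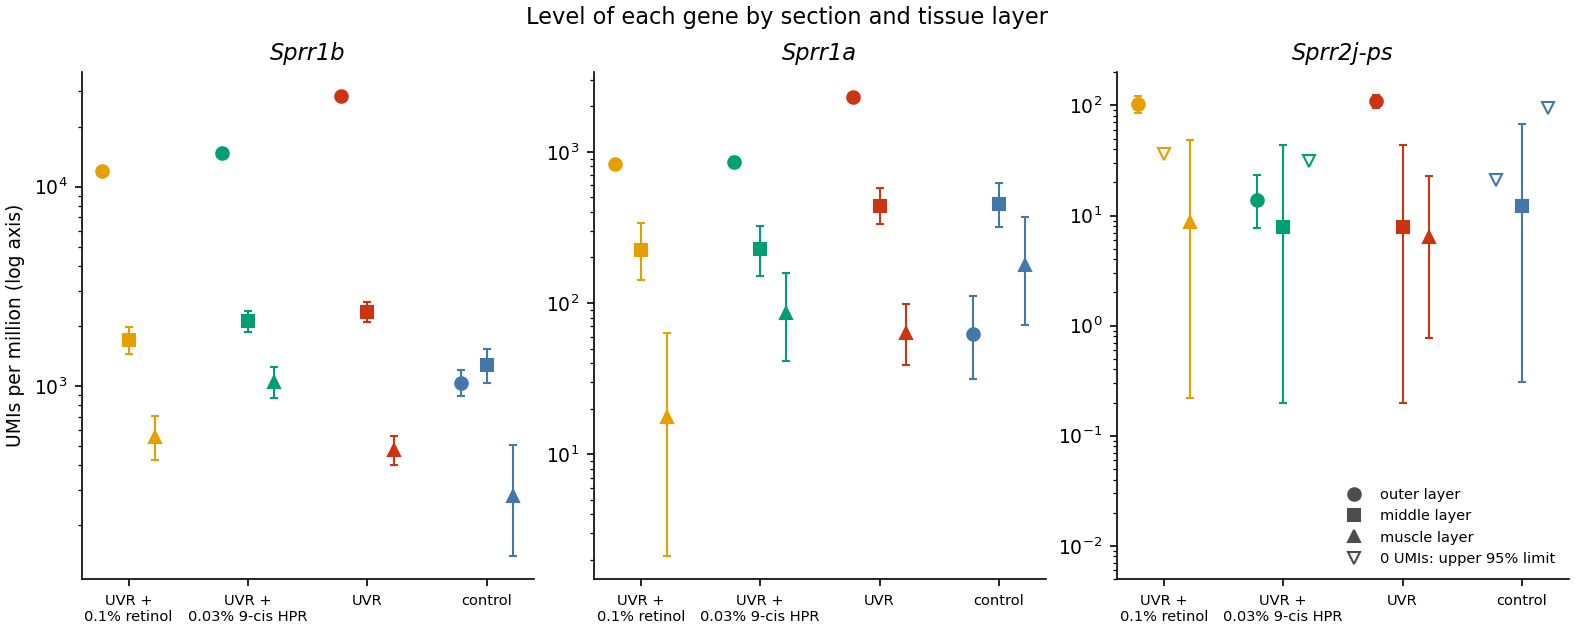
CPM (log axis) of each gene in the outer, middle and muscle layers of the 4 sections, with exact 95% counting intervals; open triangles are upper limits where the count was 0. Sprr1b in the outer layer was 11907 CPM in the retinol section, 14739 in the HPR section, 28486 in the UVR section and 1036 in the control section, and Sprr1a in control skin was higher in the middle layer than in the outer layer.

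The sections differ in how much epidermis they hold, so the members were next compared within the outer layer. That layer itself differed, with suprabasal and cornified markers at 32016 CPM in UVR and 106966 CPM in control skin. Basal keratinocyte markers were at 60129 and 25195 CPM. The part of this make-up in the ratios was not tested. Sprr1b was at 28486 CPM in UVR and 1036 CPM in control outer layer, 27.5-fold higher in UVR skin (23.8 to 32.0). Sprr1a was at 2298 CPM in UVR and 62.6 CPM in control outer layer, 36.7-fold higher in UVR skin (20.5 to 73.6) and the second from the top of 2003 genes. Sprr2j-ps had 230 UMIs in the UVR outer layer and 0 of 175672 UMIs in the control outer layer; against a floor of 3 counts in the control layer it was at least 6.40-fold higher. Of the genes compared in this layer, 18.8% had a ratio of UVR to control of 2 or more, and the median ratio was 1.17. In spots of this size, more cells that carry a transcript and more transcript per cell cannot be told apart.

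The comparisons of both retinoids with UVR skin share the UVR section, and all comparisons with control skin share the control section. The retinol section held less Sprr1b and Sprr1a than the UVR section in the outer layer, but as much Sprr2j-ps within counting error. Sprr1b was at 11907 CPM in retinol-treated and 28486 CPM in UVR outer layer, 2.39-fold lower in retinol-treated skin (2.35 to 2.44). Sprr1a was at 835 and 2298 CPM in these layers, 2.75-fold lower in retinol-treated skin (2.57 to 2.95). At least 2-fold lower values were found for 9.85% of the 2406 genes compared, so 2 of the 3 members lay in the lower tail of all genes. Sprr2j-ps stood apart from them, with 121 UMIs or 103 CPM in retinol-treated and 230 UMIs or 109 CPM in UVR outer layer, a ratio of 0.942 (0.75 to 1.18).

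The HPR section held less of all 3 members than the UVR section in the outer layer. Sprr1b was at 14739 CPM in HPR-treated and 28486 CPM in UVR outer layer, a ratio of 0.517 (0.508 to 0.527) that stops short of 2-fold. Sprr1a was at 862 and 2298 CPM in these layers, 2.67-fold lower in HPR-treated skin (2.48 to 2.87). Sprr2j-ps had 14 UMIs or 13.9 CPM in HPR-treated and 230 UMIs or 109 CPM in UVR outer layer, 7.83-fold lower in HPR-treated skin (4.57 to 14.6), the third from the lowest of 2322 genes. In this comparison 9.95% of genes were at least 2-fold lower. The whole-section ratio of Sprr2j-ps in HPR-treated to UVR skin was 0.265 on the left side of the image and 0.0582 on the right side.

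Both retinoid-treated sections stayed above the control section. In the outer layer Sprr1b was 11.5-fold higher in retinol-treated skin (9.93 to 13.4) and 14.2-fold higher in HPR-treated skin (12.3 to 16.6) than in control skin. Sprr1a was 13.3-fold higher in retinol-treated skin (7.42 to 26.8) and 13.8-fold higher in HPR-treated skin (7.65 to 27.7). Sprr2j-ps was at least 6.03-fold higher in the retinol section than in the control section, and its 14 UMIs in the HPR section were too few for a bound above 1. At least 2-fold higher values were found for 17.0% of genes with retinol and 11.9% with HPR. The doses of the 2 retinoids differ, so their sections are given side by side and were not compared with each other.

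**Figure D2:**
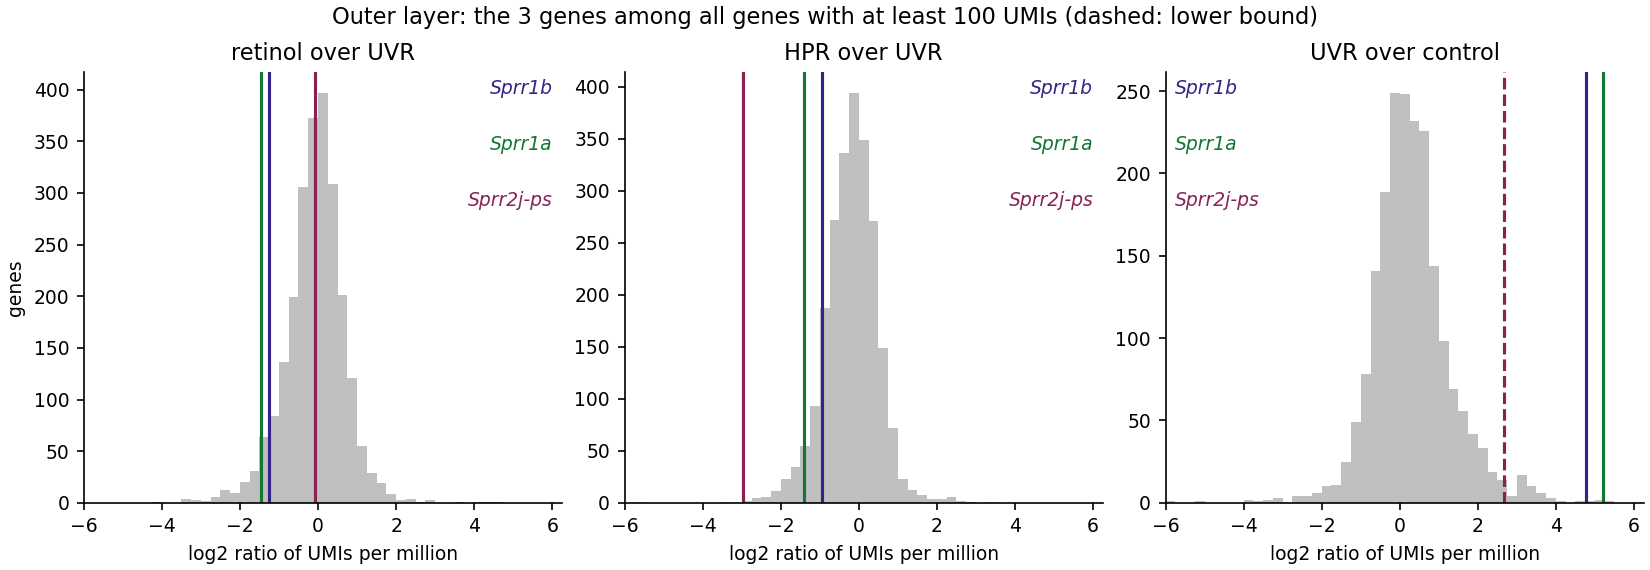
Numbers of genes by log2 ratio of CPM in the outer layer, for genes that reached 100 UMIs, with the 3 members as lines (a dashed line is a lower bound). Sprr1b and Sprr1a lay among the highest ratios of UVR over control and in the lower tail of both treated sections over UVR, while Sprr2j-ps lay near 0 for retinol over UVR and far below it for HPR over UVR.

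The ratios of the treated sections to UVR skin changed direction for Sprr1b and Sprr1a when region 5 was left out. That region was led by Pitx1, Krt78 and Cyp2s1. Its 116 UVR spots held 55482 of the 60460 Sprr1b UMIs of the UVR section, at 36065 CPM, with Sprr1a at 2902 CPM and Sprr2j-ps at 137 CPM. These spots also held 1538374 of the 2558616 UMIs of all genes in that section. Over all sections, spots of region 5 had a median of 12191 UMIs, against 3864 in region 1 and 2477 in region 2. With region 5 left out of the outer layer, Sprr1b was at 11907 CPM in the retinol section and 14739 CPM in the HPR section, against 7943 CPM in the UVR section. The ratios to UVR skin then turned to 1.5 for retinol (1.45 to 1.55) and 1.86 for HPR (1.79 to 1.92). Sprr1a turned likewise, to 1.26 for retinol (1.12 to 1.43) and 1.30 for HPR (1.15 to 1.48). Sprr2j-ps, on 20 UMIs in the UVR section, went to 2.92 for retinol (1.81 to 4.95). With HPR it stayed below UVR skin, at 0.396 (0.185 to 0.824). Against control skin, UVR skin without region 5 was still 7.69-fold higher in Sprr1b (6.61 to 8.99) and 12.5-fold higher in Sprr1a (6.52 to 27.6), beside 16.9% of all genes past 2-fold upward. What remains of the UVR outer layer is 111 spots of region 1 and 40 of region 2, against 114 and 83 in the retinol section and 110 and 115 in the HPR section, so region 1, where these genes are lower, weighs more in it. Region 5 was chosen for removal after its values had been seen, and whether its spots have a counterpart in the treated sections was not tested.

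In region 2 the 3 irradiated sections were close in Sprr1b. Region 2, led by Krt77, Lce1d and Hrnr, held 83 retinol, 115 HPR, 40 UVR and 86 control spots. Its Sprr1b level was 19644 CPM in the retinol section, 22762 CPM in the HPR section, 21404 CPM in the UVR section and 1022 CPM in the control section. The irradiated sections were thus within 1.09-fold of the UVR level in that region, and all were far above control skin, with the UVR section 20.9-fold higher (17.9 to 24.7) beside 7.73% of genes past 2-fold upward. Sprr1a in region 2 was 1412 CPM in the retinol section, 1348 CPM in the HPR section, 2087 CPM in the UVR section and 43.1 CPM in the control section. Per UMI of the region it was lower in treated skin, with ratios to UVR skin of 0.676 for retinol (0.580 to 0.791) and 0.646 for HPR (0.553 to 0.756).

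Region 1, led by Alox12e, Col13a1 and Krt73, held 114 retinol, 110 HPR and 111 UVR spots but 3 control spots. Sprr1b there was 6915 CPM in the retinol section, 7642 CPM in the HPR section and 4821 CPM in the UVR section, so both treated sections were above UVR skin, 1.43-fold (1.36 to 1.51) and 1.59-fold (1.5 to 1.67). Sprr1a was 463 CPM in the retinol section, 432 CPM in the HPR section and 330 CPM in the UVR section. In each irradiated section both genes were higher in region 2 than in region 1.

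**Figure D3:**
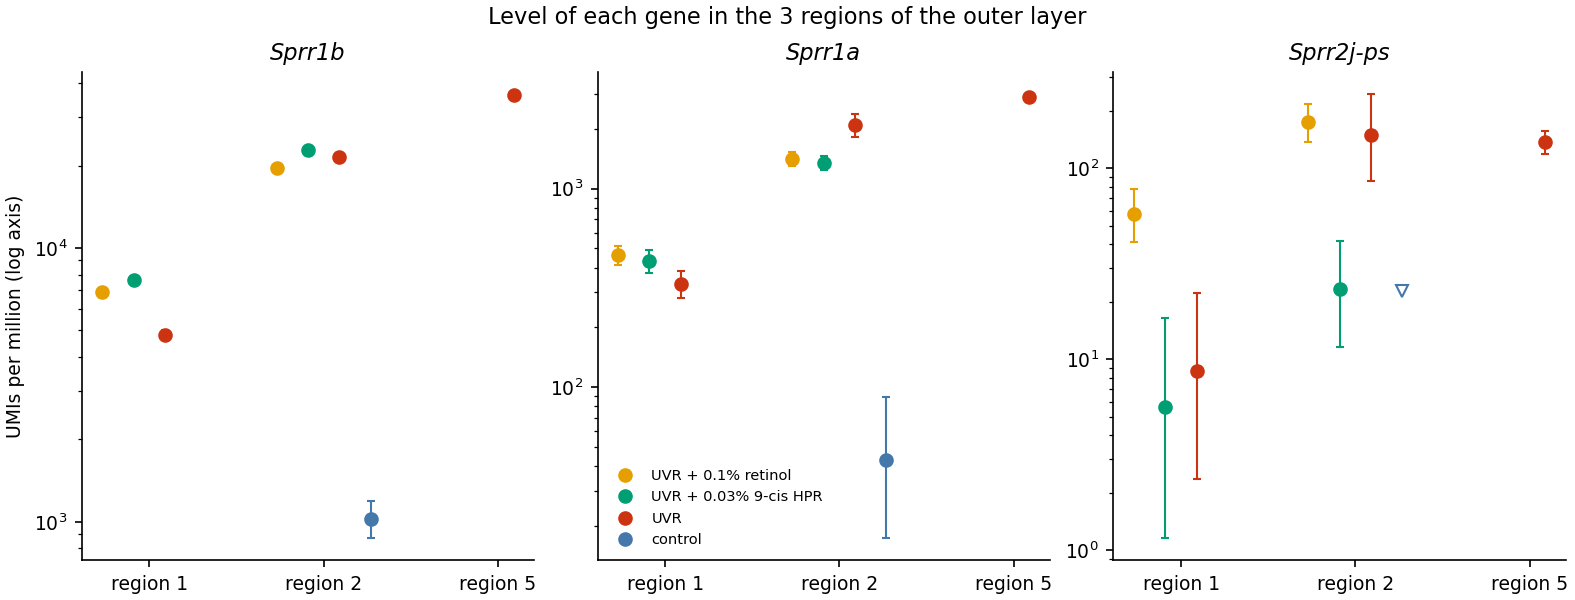
CPM (log axis) of each gene in regions 1, 2 and 5 of the outer layer for sections with at least 20 spots there, with exact 95% counting intervals; the open triangle is an upper limit for a count of 0. In region 2 the 3 irradiated sections had Sprr1b at 19644 to 22762 CPM and the control section had 1022 CPM, while Sprr2j-ps was low in the HPR section of region 2 and in both the HPR and UVR sections of region 1.

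Sprr2j-ps had fewer than 100 UMIs in each of these regions. In region 2 it had 80 UMIs or 173 CPM in the retinol section, 11 UMIs or 23.3 CPM in the HPR section, 16 UMIs or 150 CPM in the UVR section and 0 UMIs in the control section. In region 1 it had 41 UMIs or 57.4 CPM in the retinol section, 3 UMIs in the HPR section and 4 UMIs in the UVR section. In region 2 its ratio to UVR skin was 1.16 for retinol (0.672 to 2.12) and 0.156 for HPR (0.0654 to 0.358). In region 1 it was 6.61 for retinol (2.39 to 25.4) and 0.649 for HPR (0.0950 to 3.83), the last not detectable as a difference on 3 and 4 UMIs. Counted per 100 UMIs of Sprr2j-ps and Sprr1b together, Sprr2j-ps made up 0.849 in the retinol section (0.705 to 1.01), 0.0986 in the HPR section (0.0552 to 0.163), 0.384 in the UVR section (0.336 to 0.436) and 0.306 in the control section (0.00774 to 1.69). The Sprr2 genes are near-identical copies, and how the probes for Sprr2j-ps tell them apart is not given in the sources used here.

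Within the outer layer the members were spread unevenly between spots. Per 10000 UMIs of a spot, the median of Sprr1b was 87.9 in the retinol section, 86.9 in the HPR section, 121 in the UVR section and 6.91 in the control section. The highest spots reached 402 in the retinol section, 569 in the HPR section, 860 in the UVR section and 144 in the control section. The highest control spot, with 28 Sprr1b UMIs, was above the medians of all irradiated sections, so single spots of the groups overlapped. The tenth of spots with the most Sprr1b UMIs held 35.4% of its outer-layer UMIs in the retinol section, 43.7% in the HPR section, 47.8% in the UVR section and 44.0% in the control section.

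Spots were thinned to 500 UMIs to compare shares of spots at equal depth. A Sprr1b UMI was then found in 79.0% of 195 outer-layer spots in the retinol section, 87.4% of 198 in the HPR section, 90.6% of 255 in the UVR section and 44.7% of 85 in the control section. In the muscle layer, where these genes should be lacking, the share was 18.2%, 25.9%, 22.1% and 25.0% in the same order, from spots with median depths of 1048, 721, 1878 and 2262 UMIs before thinning against 5199, 4199, 6121 and 1643 UMIs in the outer layer. The outer-layer share was above this background in every section, although the control intervals overlap. Sprr1a was in 29.2%, 31.8%, 39.6% and 4.71% of these outer-layer spots and in 0%, 2.68%, 1.43% and 0% of the muscle spots. Sprr2j-ps was in 3.08%, 0.505%, 4.31% and 0% of the outer-layer spots and in 0%, 0%, 0.714% and 0% of the muscle spots. At 1000 UMIs the muscle share of Sprr1a was 2.13% of 47 spots in the retinol section, 9.09% of 22 in the HPR section, 4.24% of 118 in the UVR section and 25% of 12 in the control section, against 47.4%, 48.4%, 51.4% and 4.62% in the outer layer. At that depth the muscle share of Sprr1b was 27.7%, 59.1%, 39.8% and 25%. For Sprr2j-ps the 0 of 85 control spots allows a share of up to 4.25%. The spots left out as too shallow numbered 2 in the retinol section, 27 in the HPR section, 12 in the UVR section and 5 in the control section. Without thinning, 187 of 197 retinol, 219 of 225 HPR, 263 of 267 UVR and 66 of 90 control spots had a Sprr1b UMI.

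Across outer-layer spots of one section, Sprr1b per 10000 UMIs ran with Lor, the loricrin gene of the cornified envelope (Pearson r 0.785 in 197 retinol, 0.719 in 225 HPR and 0.696 in 267 UVR spots), and against Krt5, the basal keratin gene (r -0.312, -0.331 and -0.346). These spots share a library and the same depth in both values, so the correlations are a description and carry no test. The cause of these correlations was not tested.

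**Figure D4:**
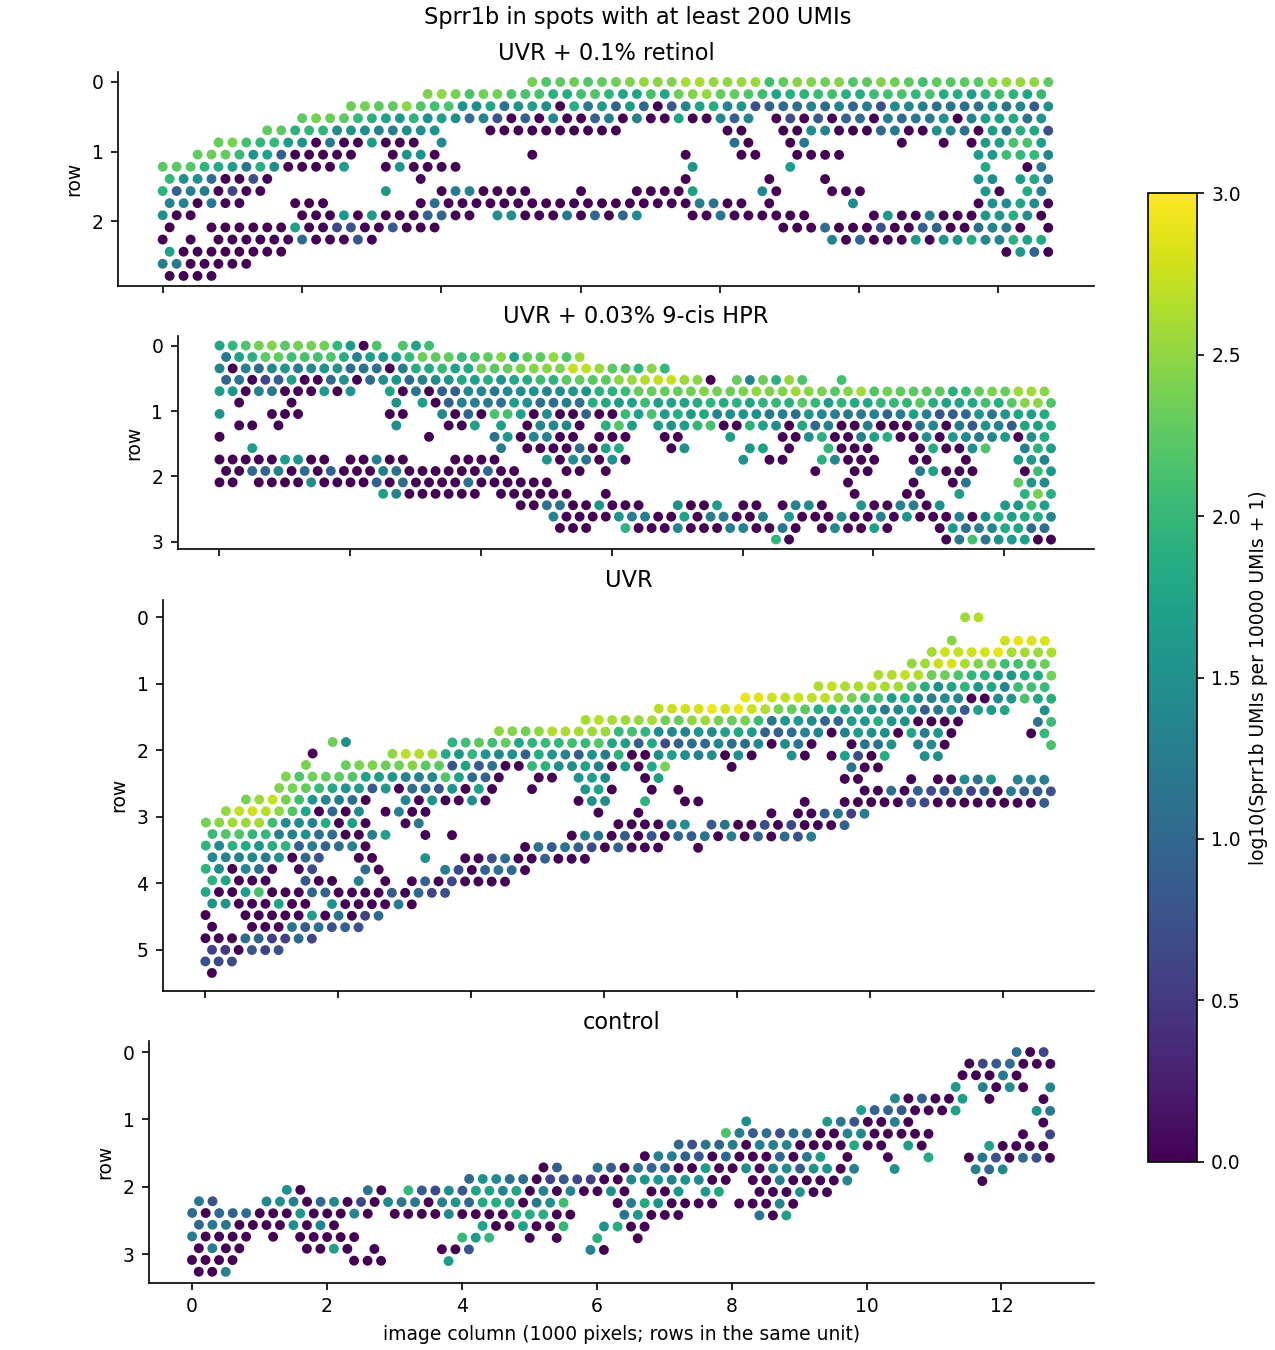
Spots with at least 200 UMIs at their image positions (axes in units of 1000 pixels, rows from the top of each section), coloured by log10 of Sprr1b UMIs per 10000 UMIs plus 1. In the 3 irradiated sections the brightest spots form a band along the upper edge, reaching 860 per 10000 in the UVR section; the control section has no such band, and its highest outer-layer spot was at 144.

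The outer layer held 83.1% of all UMIs in the retinol section, 80.3% in the HPR section, 82.3% in the UVR section and 53.9% in the control section. Sprr1b exceeded that share in the irradiated sections and stood near it in the control section, and Sprr1a lay below it in the control section. For Sprr1b the outer layer held 98.3% of its UMIs in the retinol section (98.0 to 98.5), 97.4% in the HPR section (97.1 to 97.7), 99.2% in the UVR section (99.1 to 99.3) and 55.8% in the control section (50.3 to 61.3). For Sprr1a the shares were 97.4% in the retinol section, 95.7% in the HPR section, 98.4% in the UVR section and 19.6% in the control section (10.2 to 32.4). Of the 56 Sprr1a UMIs in control skin, 11 were in the outer layer, 37 in the middle layer, 7 in the muscle layer and 1 in the region rich in Scd1.

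Sprr1a therefore ran in opposite directions with depth. Its level in the middle layer was 224 CPM in the retinol section, 226 CPM in the HPR section, 441 CPM in the UVR section and 450 CPM in the control section, against 835, 862, 2298 and 62.6 CPM in the outer layer of the same sections. The middle layer was below the outer layer in irradiated skin, with ratios of 0.268 for retinol (0.169 to 0.405), 0.263 for HPR (0.175 to 0.380, and 0.165 in spots apart from the outer layer) and 0.192 for UVR (0.145 to 0.249). It was 7.19-fold above the outer layer in control skin (3.59 to 15.6), and the 126 control middle spots that did not adjoin the outer layer gave the same 7.19 (3.43 to 16.1). In control skin the ratio to the outer layer was 8.79 for region 3 (4.35 to 19.2) and 2.35 for region 6 (0.421 to 8.91, on 3 UMIs). In the middle layer the UVR and control levels did not differ beyond counting error, with a ratio of 0.978 (0.635 to 1.52). Both treated sections were below control skin there, with ratios of 0.498 for retinol (0.282 to 0.860) and 0.502 for HPR (0.298 to 0.839). These middle-layer levels rest on 23 UMIs in the retinol, 29 in the HPR, 56 in the UVR and 37 in the control section. None of these 3 comparisons between sections reached the minimum of 100 UMIs.

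Lor and Krt5 did not show the pattern of Sprr1a in control skin, while Sprr1b shifted in the same direction by less. The middle over outer ratio of Sprr1b was 0.142 in the retinol section, 0.143 in the HPR section and 0.0829 in the UVR section. In the control section it was 1.22 for Sprr1b (0.951 to 1.56), 0.648 for Krt5 and 0.140 for Lor. The 37 control UMIs of Sprr1a came from 26 of 178 middle spots, with at most 4 in one spot; at 500 UMIs a Sprr1a UMI was in 23.5% of 51 middle spots against 4.71% of 85 outer spots of control skin. Summed hair follicle markers of the middle layer were highest in the control section. The 6 of 7 listed genes in the files gave 195 CPM there, on 16 UMIs. They gave 48.7 CPM in the retinol section, 15.6 CPM in the HPR section and 15.7 CPM in the UVR section. Sprr1a itself was at 441 CPM in the UVR and 450 CPM in the control middle layer. In the control section they reached 664 CPM in the muscle layer and were at 0 in the outer layer, and Krt27, Krt75 and Lgr5 were at 0 in the middle layer. Suprabasal and cornified markers were also higher in the middle layer of the control section, at 20657 CPM, than in those of the retinol (4902 CPM), HPR (6038 CPM) and UVR (5869 CPM) sections. Macrophage, sebaceous, adipocyte, skeletal muscle and mast cell sums were highest in that layer of the control section too, the last on 1 UMI. Basal keratinocyte, fibroblast, endothelial, T cell, melanocyte and plasma cell sums were not. The part of any of these cell types in the Sprr1a value was not tested. The muscle layer of the control section gave a value on few counts: its ratio to the outer layer was 2.86 for Sprr1a (0.939 to 8.07, on 7 and 11 UMIs), 0.271 for Sprr1b, 0.0487 for Krt5 and 0.00891 for Lor. In the UVR section these ratios were 0.0278, 0.0167, 0.0182 and 0.0190.

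Distance from the nearest outer-layer spot was taken in steps of 1 spot. It pooled the middle layer, the muscle layer and the region rich in Scd1. The UVR section had 165 muscle-layer spots, with Sprr1a at 63.8 CPM. The control section had 22, with Sprr1a at 179 CPM on 7 UMIs. Distance and layer can therefore not be told apart in these values. In the UVR section Sprr1a was at 369 CPM 1 step from the outer layer, 249 CPM at 2 steps, 153 CPM at 3 to 5 steps and 46.6 CPM at 6 or more. In the control section it was at 277, 314, 411 and 80.2 CPM at the same distances, the last on 2 UMIs in 14 spots. The share of Sprr1a among Sprr1a and Sprr1b UMIs was higher in the middle than in the outer layer of every section. It was 11.7% and 6.55% in these layers of the retinol section, 9.67% and 5.52% in the HPR section, 15.7% and 7.47% in the UVR section, and 26.2% and 5.70% in the control section.

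**Figure D5:**
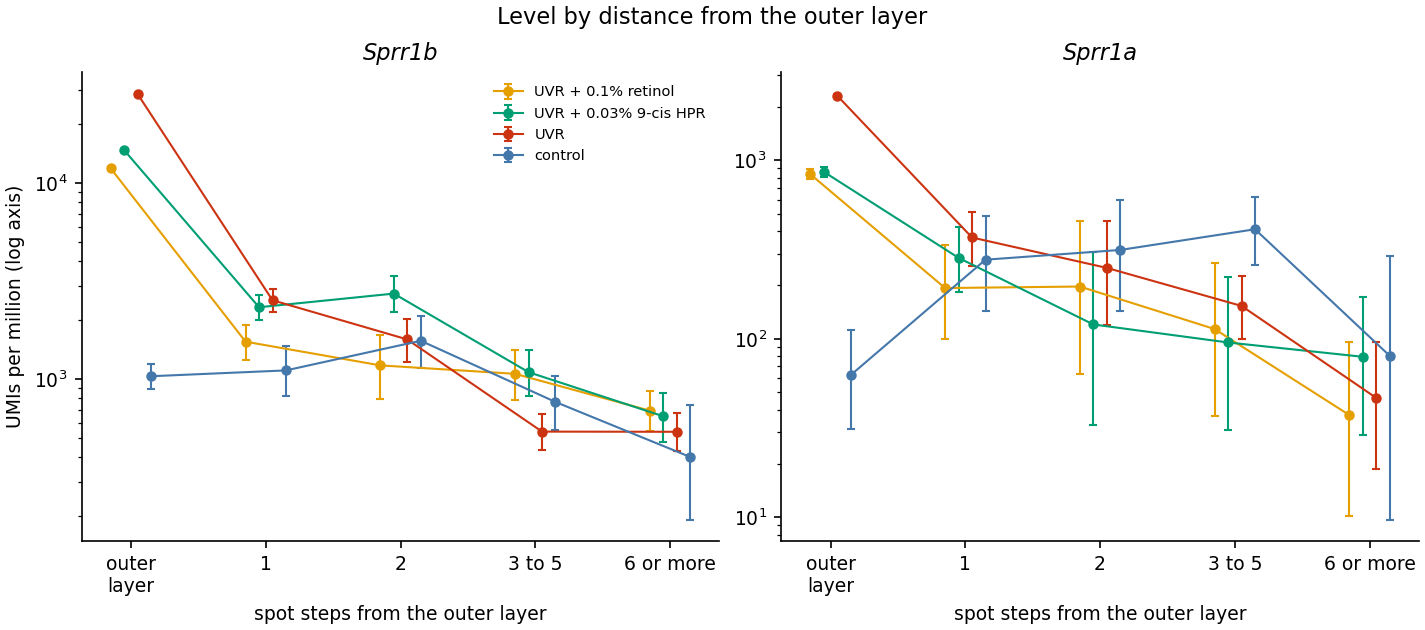
CPM (log axis) of Sprr1b and Sprr1a by the number of spot steps from the outer layer in the 4 sections, with exact 95% counting intervals. Steps away from the outer layer pool spots of the middle layer, the muscle layer and the region rich in Scd1. Sprr1a was highest in the outer layer of each irradiated section, at 2298 CPM in the UVR section. Within the control section its lowest value was in the outer layer, at 62.6 CPM (31.3 to 112). That interval overlapped the one at 6 or more steps, 80.2 CPM on 2 UMIs (9.71 to 290).

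Set against Krt5, which marks the basal keratinocytes that all sections hold, the order of the sections stayed for Sprr1b and Sprr1a but not for Sprr2j-ps. Per 1000 Krt5 UMIs of the outer layer, Sprr1b was at 430 in the retinol section (422 to 439), 600.3 in the HPR section (588 to 613), 687 in the UVR section (680.1 to 694) and 48.1 in the control section (41.3 to 55.9). Sprr1a was at 30.2, 35.1, 55.4 and 2.91 in that order. Krt5 itself differed between the outer layers, at 27690, 24553, 41450.5 and 21523 CPM in that order, so values on this scale also move with Krt5. In region 2 the order turned: Sprr1b was at 1036 in the retinol section, 1320 in the HPR section, 597 in the UVR section and 47.9 in the control section. Sprr1a there was likewise higher in treated skin on this scale, at 74.5 in the retinol section, 78.1 in the HPR section, 58.2 in the UVR section and 2.02 in the control section. In region 2 Krt5 made up 8739 of 461106 UMIs in the retinol section and 8128 of 471216 in the HPR section. It made up a larger share in the UVR section, 3833 of 106851 UMIs.

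The other 9 measured Sprr genes, all cornified envelope precursors, were far less counted. Together they had 87 UMIs in the retinol section, 79 in the HPR section, 371 in the UVR section and 8 in the control section, or 61.5, 63.2, 145 and 24.5 CPM. Sprr2h led them with 53, 33, 239 and 5 UMIs, and was 6.09-fold higher in UVR than in control skin (2.57 to 18.9). Sprr2d had 26 UMIs in the retinol section, 39 in the HPR section, 83 in the UVR section and 0 in the control section, which makes it at least 3.53-fold higher in UVR than in control skin. Unlike Sprr2j-ps, Sprr2d was not lower in the HPR section than in the UVR section beyond counting error, at a ratio of 0.962 (0.640 to 1.42), and Sprr2h was lower in both treated sections, with ratios of 0.401 for retinol (0.292 to 0.542) and 0.283 for HPR (0.190 to 0.408). Sprr2k had 27 UMIs in the UVR section and at most 2 in any other section. Sprr2b, Sprr2e, Sprr2f, Sprr2i, Sprr3 and Sprr4 had at most 10 UMIs in a section, so that no difference could be detected at this depth.

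The partners of the Sprr proteins did not follow them as a group in UVR outer layer. Region 2, led by Krt77, Lce1d and Hrnr, held 86 of the 90 control outer-layer spots but 40 of the 267 UVR ones. Ratios of the partners were not computed within a region or without region 5, so gene level and make-up of the layer cannot be told apart. The list of other epidermal differentiation complex genes held 38 symbols, of which 29 were in the files. Of the 4 that reached 100 UMIs, 0 were higher in UVR than in control skin by 2-fold or more and 3 were lower by that size, against 5.94% of all genes, with a median ratio of 0.224. Lor was at 16316 CPM in UVR and 80309 CPM in control outer layer, 4.92-fold lower in UVR skin (4.83 to 5.02). Lce1f, a late cornified envelope gene, was 5.99-fold lower (3.88 to 9.12), Flg, the filaggrin gene, had a ratio of 0.245 (0.212 to 0.283), and Crct1 had a ratio of 0.817 (0.782 to 0.853). In the comparisons with UVR skin the 4 genes that reached 100 UMIs were Lor, Flg, Crct1 and Hrnr; 0 passed 2-fold either way with retinol, and 1, Hrnr, was higher with HPR at a ratio of 3.30. Sprr1b and Lor thus differed in direction between UVR and control skin, although they ran together across the outer-layer spots of each irradiated section. No such correlation is given for the control section.

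Cross-linking and scaffold genes of the envelope went both ways, with the same difference in make-up between the UVR and control outer layers. Of 12 compared, 4 were above control by 2-fold or more in UVR outer layer and 2 were below it by as much, beside 18.8% and 5.94% of all genes, and the median ratio was 1.18 beside 1.17 for all genes. The highest were Cnfn, which encodes cornifelin, at 2.81 (1.55 to 5.67), and Tgm1, the membrane-bound transglutaminase of keratinocytes, at 2.74 (2.29 to 3.31). The lowest were Krtdap at 0.348 (0.315 to 0.385) and Sbsn, the suprabasin gene, at 0.447 (0.340 to 0.596). In retinol-treated against UVR skin 0 of 12 were higher by that size and 4 were lower, beside 5.28% and 9.85% of all genes. In HPR-treated against UVR skin 0 of 13 were higher and 3 lower, beside 2.63% and 9.95%. Cnfn and Cdsn of this list were among the leading genes of region 5, which was absent from both treated sections. The counts against UVR skin were not recomputed without it.

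Transcription factors known to act on Sprr genes or on keratinocyte differentiation were compared next. Of 13 compared in the outer layer, 6 were higher by 2-fold or more and 1 was lower by as much, with a median ratio of 1.80, beside 18.8% and 5.94% of all genes. The Ets factor gene Elf3 was highest at 4.92 (1.66 to 24.1), on 3 control UMIs, and Fosl2, an AP-1 subunit gene, followed at 4.50 (2.56 to 8.76). The lowest were 2 other AP-1 subunit genes, Jund at 0.405 (0.291 to 0.577) and Jun at 0.523 (0.381 to 0.733). Against UVR skin, 1 of 14 was higher and 0 were lower by 2-fold with retinol, beside 5.28% and 9.85% of all genes, and 0 were higher and 1 lower with HPR, beside 2.63% and 9.95%. The stress keratins, made in wounded and hyperproliferative epidermis, came closest to the members in size: 4 of 4 were at least 2-fold higher in UVR than in control outer layer, beside 18.8% of all genes, with Krt6b at 38.2 (30.7 to 48.1), Krt16 at 33.7 (25.3 to 46.1), Krt6a at 11.4 (3.87 to 55.5) and Krt17 at 5.21 (3.75 to 7.46). Of these 4, 3 were at least 2-fold lower in retinol-treated than in UVR outer layer, beside 9.85% of all genes, and 2 in HPR-treated skin, beside 9.95%. Krt6b and Krt16 were among the leading genes of region 5, of which the treated sections held no spots. The counts of transcription factors and stress keratins against UVR skin were not recomputed without that region.

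The genes whose pattern was most like each member were found among 2354 genes by Pearson's r of log2(CPM + 1) over 12 sums, the outer, middle and muscle layers of the 4 sections. These sums share sections and layer contrasts, so the values rank genes and carry no test. Nearest to Sprr1b were Krt16 (r 0.966), the water and glycerol channel gene Aqp3 (0.95), Krt6b (0.949), the connexin 26 gene Gjb2 (0.936) and Rab5c (0.915). Nearest to Sprr1a were Krt6b (0.914), Krt16 (0.913), Gjb2 (0.897), Shb (0.890) and Nhp2 (0.873). Nearest to Sprr2j-ps were Ccdc59 (0.771), Krt6b (0.75), Gnptg (0.75), Dlgap4 (0.741) and Sprr1b (0.732). Sprr2j-ps had 121 UMIs in the retinol, 14 in the HPR and 230 in the UVR outer layer. It had at most 2 UMIs in every other sum, so all r values of this gene rest on few counts. Among the members, r was 0.831 for Sprr1b with Sprr1a and 0.614 for Sprr1a with Sprr2j-ps. Krt16 itself was at 1893 CPM in the retinol section, 2304 CPM in the HPR section, 7338 CPM in the UVR section and 279 CPM in the control section. By Spearman's rho instead, 0, 2 and 1 of the first 5 genes were shared for Sprr1b, Sprr1a and Sprr2j-ps. Krt16 held place 4 for Sprr1b by rho (0.965) but was tied with other genes and so not counted among the 5. Of the first 5 genes by Pearson's r, 4, 5 and 1 were among the first 20 by rho.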

How the data were processed

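Visium spatial libraries of fresh-frozen skin were made with the probe-based kit for fixed tissue, per the labels' protocols. The files deposited by the authors give unnormalised UMI counts for each spot; Space Ranger 2.0.0, Seurat 4.1.0 and mm10 are named in the submitters' processing notes. Sections were split at fixed image rows. The members, gene lists and comparisons were chosen with earlier results of these data known.

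Counts of spots with at least 200 UMIs were summed per section, layer or region and divided by its total (CPM). Ratios of CPM have Clopper-Pearson 95% intervals on the share of a gene's UMIs in the first section, and levels have exact Poisson intervals. Against 0 counts, a floor of 3 counts over the group made the ratio a bound. Genes that reached 100 UMIs in the 2 sections together were compared, and a fold of 2 was the size rule. Ratios were tested on simulated data.

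Spots were clustered together with scanpy 1.11.5 (2000 variable genes, 20 components, 15 neighbours, Leiden resolution 0.5) without Sprr, keratin and listed genes. A region took the layer of its highest median log2 fold among muscle, sebaceous and fibroblast markers if at least 2, and was otherwise outer; that rule followed a look at the clusters. No doublets were called, since a spot holds several cells. Named genes were the members, all measured Sprr genes, the 2 highest and 2 lowest UVR over control ratios per list in the outer layer, and the 5 genes most like each member. Promoters and coordinates came from RefSeq tables of GRCm38.p6; Sprr2j-ps had no promoter window there. The alternatives exchanged the sections, left out abundant genes from the total, changed the spot and gene minimums, added a pseudocount of 1 CPM, weighted the layers alike and took each image side alone. Alternatives without region 5, with Leiden resolution 1 and with middle spots apart from the outer layer were chosen after seeing the data.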

Additional observations from a re-analysis of the deposited data

Results flagged for a closer look

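The level of Sprr1a in the middle layer over the outer layer ran one way in control skin and the other way in each irradiated section. The ratio was 0.268 in the retinol section, 0.263 in the HPR section and 0.192 in the UVR section, against 7.19 in the control section. Each group is 1 section, and the difference between the sections was not tested.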

How the results depend on the processing

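No paired analysis was possible because each group is 1 section. Exchanging the sections on both capture areas turned all 28 ratios that could be recomputed. UVR over control became 0.0423 for Sprr1b, 0.0894 for Sprr1a and 0.0337 for Sprr2j-ps, and 0.0364, 0.0272 and 0.156 in the outer layer. Retinol over UVR became 12.2, 4.21 and 3.91, and 14.2 and 13.8 for Sprr1b and Sprr1a in the outer layer. HPR over UVR became 10.1, 4.15 and 28.1, and 11.5, 13.3 and 6.03 in the outer layer. Retinol over control became 0.514, 0.376 and 0.132, and 0.517, 0.375 and 0.128 in the outer layer. HPR over control became 0.426, 0.371 and 0.947, and 0.418 and 0.363 for Sprr1b and Sprr1a in the outer layer. The ranks and shares turn with them: in UVR over control Sprr1b became the fifth from the lowest of 2510 genes (7.61% at least 2-fold higher, 12.4% lower) and, in the outer layer, Sprr1a the second from the lowest of 2003 (5.94% higher, 18.8% lower), and in HPR over UVR outer layer Sprr2j-ps ranked 31 from the highest of 1423 (17.0% higher, 5.13% lower). Without region 5, outer-layer UVR over control was 7.69, 12.5 and at least 2.00, retinol over UVR 1.5, 1.26 and 2.92, and HPR over UVR 1.86, 1.30 and 0.396 for Sprr1b, Sprr1a and Sprr2j-ps.

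All other alternatives kept the direction of the ratios they could give. With outer, middle and muscle layers weighted alike, Sprr1b gave 12.1 (UVR over control), 0.452 (retinol over UVR), 0.571 (HPR over UVR), 5.48 (retinol over control) and 6.93 (HPR over control), and Sprr1a gave 4.05 (UVR over control), 0.419 (HPR over UVR), 1.56 (retinol over control) and 1.70 (HPR over control). The left image side gave 16.8 (UVR over control), 0.538 (retinol over UVR), 0.678 (HPR over UVR) and 9.01 (retinol over control) for Sprr1b. For Sprr1a it gave 7.71 (UVR over control), 0.422 (retinol over UVR) and 0.476 (HPR over UVR). For Sprr2j-ps it gave at least 3.24 (UVR over control), 0.265 (HPR over UVR) and at least 2.90 (retinol over control). The right side gave 30.1 (UVR over control), 0.370 (retinol over UVR) and 0.430 (HPR over UVR) for Sprr1b, and, for HPR over UVR, 0.329 for Sprr1a and 0.0582 for Sprr2j-ps. Spots with at least 500 UMIs gave Sprr1b ratios of 27.5 (UVR over control), 0.531 (HPR over UVR), 11.9 (retinol over control) and 14.6 (HPR over control). Totals without genes of over 1% of UMIs gave 0.413 and 0.404 for Sprr1b in retinol over UVR, whole section and outer layer, Leiden resolution 1 gave 0.534 for Sprr1b in HPR over UVR outer layer, and middle spots apart from the outer layer gave 0.165 for Sprr1a in the HPR section. With a gene minimum of 20 UMIs, 760 genes were at least 2-fold higher and 1026 lower in UVR over control, beside 312 and 191 in the main setting. The same counts were 407 and 858 (124 and 267) for retinol over UVR, 378 and 920 (96 and 259) for HPR over UVR, 539 and 867 (214 and 145) for retinol over control, and 361 and 755 (119 and 122) for HPR over control. Thinning to 1000 in place of 500 UMIs moved 8 of the 12 shares of spots, and no thinning moved 10. The causes of these shifts were not tested. Depth limits control values most, since 3 counts there are 9.20 CPM.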

Other observations

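Spots under 200 UMIs were left out of every comparison above. Their summed Sprr1b level was 1620 CPM in 243 spots of the retinol section, 3846 CPM in 340 of the HPR section, 4196 CPM in 292 of the UVR section and 2921 CPM in 126 of the control section. In the control section this was above the 999.7 CPM of the kept spots, and in the other 3 sections it was below theirs. Sprr1a had 3, 8, 20 and 6 UMIs in these shallow spots in the same order.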
